A study of Mus musculus with 22 samples.

Results

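Tcf7, Lef1, Foxo1, Bach2, Satb1, Bcl11b and Id3 encode transcription regulators known from developing, naive and memory T cells. These 7 genes were taken by name from the 37620 entries of a table of RNA-seq counts per gene, and all 7 had enough counts to be tested. The libraries were made from lymphocytes of mammary tumours of female PyMT mice on the C57BL/6 strain, aged 20 to 24 weeks. PyMT mice carry the polyoma middle T oncogene and develop tumours of the mammary gland. The sources used here do not name the promoter that drives the transgene. Tumours were pooled and digested with collagenase, and cells were sorted by flow cytometry into 11 populations with 2 libraries each.

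All 11 populations came from tumour-bearing mice, so no group of healthy tissue is part of the comparison. The first set holds 5 populations named by surface markers. TCRb+CD8a+NK1.1+ cells are CD8 T cells that carry the natural killer cell receptor NK1.1, and TCRb+CD8a-NK1.1+ cells are T cells with NK1.1 and without CD8a. TCRb+CD8a+PD1+ cells carry the inhibitory receptor PD1, and TCRb+CD8a+PD1-NK1.1- cells are CD8 T cells with neither marker. TCR-NK1.1+ cells carry NK1.1 without a T cell receptor. The second set holds 6 populations: TCRab+ILTC1 and TCRgd+ILTC1 cells, which are type 1 innate-like T cells with an alpha-beta or a gamma-delta receptor, and ILC1l cells, which are type 1-like innate lymphoid cells. cNK cells, which are conventional natural killer cells, TCRgd+NK1.1- cells and TCRb+CD8a+NK1.1- cells complete it. Populations named by a marker phenotype can hold cells at several stages of differentiation, and in bulk RNA fewer cells of a type and less RNA per cell cannot be told apart.

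Tcf7 and Lef1 encode HMG-box factors that bind the same DNA motif, act with beta-catenin or with Groucho (Tle) corepressors, and set up T cell identity in the thymus. They stay high in naive and memory CD8 T cells and are lost as effector cells form, while Foxo1 maintains genes of homing and survival and Bach2 restrains effector genes. Satb1 organises chromatin in thymocytes, Bcl11b commits progenitors to the T lineage and represses natural killer genes, and Id3 holds back E proteins, as its relative Id2 does in innate lymphocytes.

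Levels are CPM (counts per 1e+06 counts of a library, scaled with edgeR's TMM factors of a set), and a mean is given with its SD over n = 2 libraries. A difference is a log2 fold change with its SE. Every adjusted p comes from the quasi-likelihood test of edgeR, adjusted by the Benjamini-Hochberg method over all genes of a set, and a gene was called when it was under 0.05. The sets were fitted apart, and levels are set side by side across them without a test. Library totals ran from 8696335 to 20602715 counts, and 3 counts in a library equalled 0.146 to 0.345 CPM. Nothing in the labels says that 2 libraries of a population come from separate animals, so p-values measure only the spread between these libraries.

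The sort markers were checked first. Klrb1c, the NK1.1 gene, averaged 932 to 2460 CPM in the 7 populations sorted or named as NK1.1+, ILTC1, ILC1l or cNK, and 1.97 to 46.8 CPM in the other 4. Pdcd1, the PD1 gene, averaged 1702 CPM in TCRb+CD8a+PD1+ cells and 98.6 CPM in TCRb+CD8a+PD1-NK1.1- cells, and 694 CPM in TCRb+CD8a+NK1.1- cells, which were not sorted on PD1. Cd3e, a T cell receptor subunit gene, was at 208 and 418 CPM in TCR-NK1.1+ libraries and at 88.4 and 477 CPM in ILC1l libraries, against 0.623 and 6.13 CPM in cNK libraries. The 2 populations labelled as lacking a T cell receptor or as innate lymphoid cells therefore held T cell transcripts that cNK cells nearly lacked. Summed CPM of 16 epithelial genes reached 1022 to 6434 in the TCRb+CD8a-NK1.1+, TCR-NK1.1+, TCRgd+NK1.1- and TCRb+CD8a+NK1.1- libraries and 73.8 to 1275 in the other 14. Summed CPM of 20 myeloid genes was 10195 and 27650 in TCRgd+NK1.1- libraries and 828 to 2925 in all others.

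Tcf7 (ENSMUSG00000000782, chromosome 11) was highest in TCRb+CD8a+PD1-NK1.1- cells, at 726 and 461 CPM. In the rest of the first set it was at 46.1 and 37.2 CPM in TCRb+CD8a+NK1.1+, 114 and 114 CPM in TCRb+CD8a-NK1.1+, 147 and 93.7 CPM in TCRb+CD8a+PD1+, and 71.7 and 52.4 CPM in TCR-NK1.1+ libraries. The PD1+ and CD8a-NK1.1+ libraries overlapped, and all other neighbours in this order lay apart. Across the second set Tcf7 spanned a narrower range, 3.29-fold between the highest and lowest mean against 14.2-fold in the first. It was at 90.4 and 69.7 CPM in TCRab+ILTC1, 56.5 and 32.4 CPM in TCRgd+ILTC1, 74.1 and 72.1 CPM in ILC1l, 103 and 116 CPM in cNK, 65.0 and 85.1 CPM in TCRgd+NK1.1-, and 143 and 150 CPM in TCRb+CD8a+NK1.1- libraries. Here the TCRab+ILTC1, TCRgd+NK1.1- and ILC1l libraries overlapped one another in turn, TCRb+CD8a+NK1.1- and cNK cells stood above them, and TCRgd+ILTC1 cells stood below.

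Lef1 (ENSMUSG00000027985, chromosome 3) had the same highest population, at 501 and 187 CPM in TCRb+CD8a+PD1-NK1.1- libraries. It was at 15.8 and 12.6 CPM in TCRb+CD8a+NK1.1+, 37.8 and 37.7 CPM in TCRb+CD8a-NK1.1+, 24.3 and 16.1 CPM in TCRb+CD8a+PD1+, and 23.5 and 13.0 CPM in TCR-NK1.1+ libraries. The 3 lowest of these populations overlapped in turn. In the second set cNK cells led with 97.2 and 81.3 CPM, followed by TCRb+CD8a+NK1.1- cells with 38.4 and 86.6 CPM, and these 2 populations overlapped. TCRab+ILTC1 libraries held 35.5 and 27.3 CPM, TCRgd+ILTC1 libraries 14.3 and 17.2 CPM, ILC1l libraries 14.5 and 15.2 CPM, and TCRgd+NK1.1- libraries 15.6 and 9.24 CPM. The last 3 were not separated from one another.

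**Figure D1:**
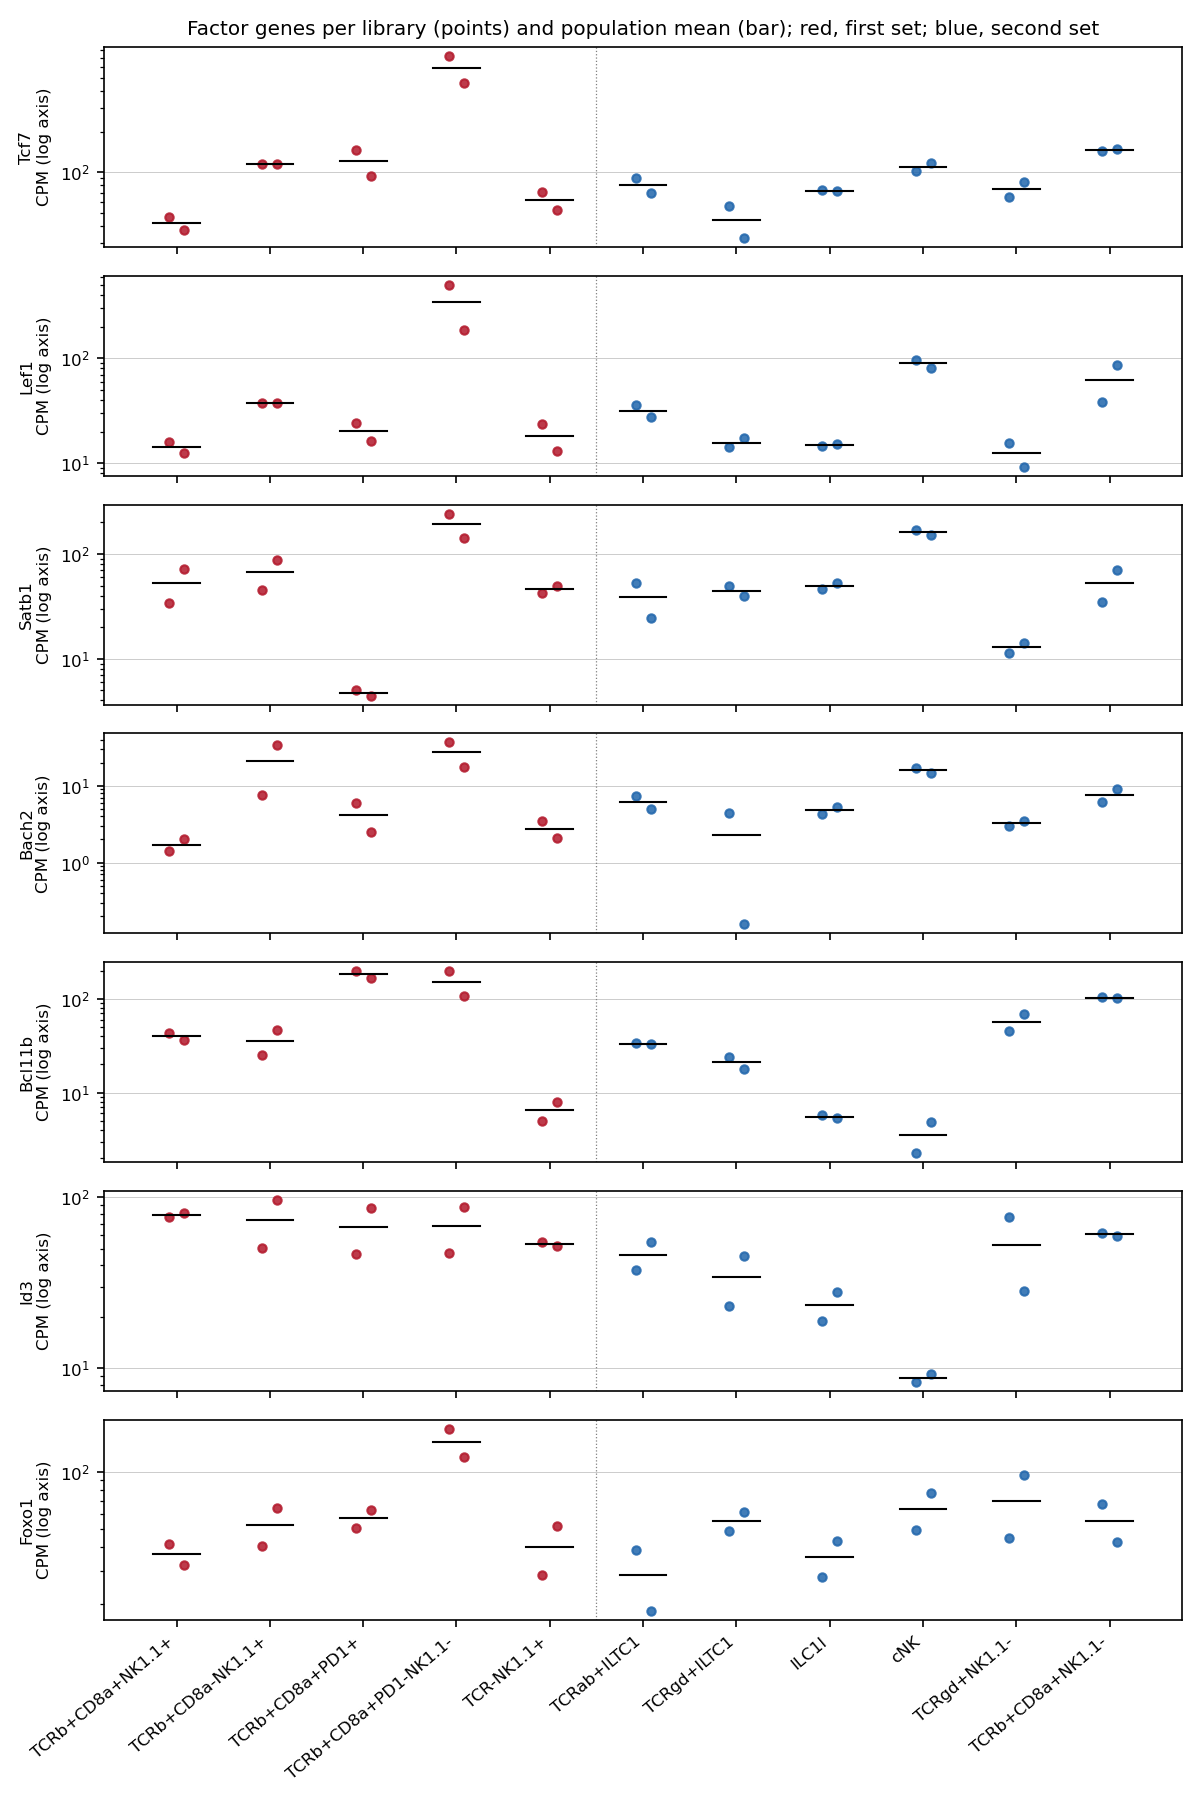
Level of each of the 7 genes in all 22 libraries, in CPM on a log axis, with 1 panel per gene. Points are single libraries and bars their mean, with the first set of 5 populations in red on the left and the second set of 6 in blue on the right. Tcf7, Lef1, Satb1, Bach2 and Foxo1 peak in TCRb+CD8a+PD1-NK1.1- cells of the first set, Bcl11b has its lowest levels in TCR-NK1.1+, ILC1l and cNK cells, and Id3 is lowest in cNK cells.

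Start-site windows of the genes were read from RefSeq, build GRCm38.p6, from 250 bases before to 50 after each annotated start, which gave 15 windows for the 7 genes. Because Tcf7 and Lef1 had the most alike patterns of the 7 genes, 1 window of each is shown from 250 bases before the start to 10 after it. Capitals mark the FOXO-type motif in the Tcf7 window, and the Lef1 stretch, printed for comparison, holds no match to the motifs searched.
Tcf7, chr11:52282586-52282845, minus strand: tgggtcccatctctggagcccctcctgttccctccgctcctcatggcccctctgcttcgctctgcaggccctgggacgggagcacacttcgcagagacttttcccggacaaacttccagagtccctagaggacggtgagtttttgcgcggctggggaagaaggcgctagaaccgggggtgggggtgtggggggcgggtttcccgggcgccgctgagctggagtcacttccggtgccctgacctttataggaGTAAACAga
Lef1, chr3:131110073-131110332, plus strand: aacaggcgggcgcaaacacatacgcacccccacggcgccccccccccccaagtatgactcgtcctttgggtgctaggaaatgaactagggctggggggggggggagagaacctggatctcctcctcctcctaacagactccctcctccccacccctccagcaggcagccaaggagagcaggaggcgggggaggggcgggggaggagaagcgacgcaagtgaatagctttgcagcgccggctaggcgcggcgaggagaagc

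Both strands of the 15 windows were searched for 4 motifs. The FOXO-type motif TGTTTAC, which reads on the other strand as GTAAACA, was found in 1 window, that of Tcf7, starting at base 2 after the start, and 3.65% of 32851 mouse windows of the same length hold it. The TCF/LEF motif ATCAAAG was in none of the 15, against 3.73% of all windows, and the BACH-type motif TGANTCA was in none, against 7.81%. The E-box CAGGTG was in 4 windows of Lef1, Satb1 and Tcf7, against 20.21% of all windows. A match is a description of the letters and not a site of binding.

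Foxo1 (ENSMUSG00000044167, chromosome 3) was again highest in TCRb+CD8a+PD1-NK1.1- cells, at 168 and 119 CPM, and these libraries lay above those of every other population of the set. The remaining 4 overlapped in turn, with 41.5 and 31.9 CPM in TCRb+CD8a+NK1.1+, 40.4 and 64.1 CPM in TCRb+CD8a-NK1.1+, 50.4 and 63.0 CPM in TCRb+CD8a+PD1+, and 28.6 and 51.8 CPM in TCR-NK1.1+ libraries. For the second set the means ran from 28.5 ± 14.3 CPM in TCRab+ILTC1 to 70.0 ± 36.0 CPM in TCRgd+NK1.1- cells, a ratio of 2.45. Each population there overlapped its neighbour in the order of means.

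Bach2 (ENSMUSG00000040270, chromosome 4) was under 40 CPM in every library. TCRb+CD8a+PD1-NK1.1- libraries held 36.7 and 17.6 CPM and TCRb+CD8a-NK1.1+ libraries 7.62 and 33.8 CPM, so that these 2 populations overlapped. TCRb+CD8a+NK1.1+ libraries held 1.42 and 2.01 CPM, TCRb+CD8a+PD1+ libraries 5.90 and 2.49 CPM, and TCR-NK1.1+ libraries 3.43 and 2.08 CPM. Among the second set cNK libraries held 16.9 and 14.8 CPM, above all others. The remaining 5 populations averaged 2.30 to 7.53 CPM, and 1 TCRgd+ILTC1 library, replicate 2, was at 0.16 CPM, under the value of 3 counts. An antisense gene, Bach2os, overlaps Bach2 and had at most 31 counts in a library, and the sources used here do not say whether counting used strand.

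Satb1 (ENSMUSG00000023927, chromosome 17) set the PD1+ cells apart. It was at 5.0 and 4.45 CPM in TCRb+CD8a+PD1+ libraries, the lowest of the first set, and at 243 and 143 CPM in TCRb+CD8a+PD1-NK1.1- libraries, the highest. TCRb+CD8a+NK1.1+ libraries held 33.8 and 72.2 CPM, TCRb+CD8a-NK1.1+ libraries 45.1 and 88.5 CPM, and TCR-NK1.1+ libraries 42.7 and 49.6 CPM, and these 3 populations overlapped. In the second set cNK cells led with 170 and 152 CPM, and TCRgd+NK1.1- cells were lowest with 11.4 and 14.2 CPM. Between them lay TCRab+ILTC1 with 52.8 and 24.2 CPM, TCRgd+ILTC1 with 49.9 and 39.4 CPM, ILC1l with 46.3 and 53.1 CPM, and TCRb+CD8a+NK1.1- with 34.8 and 70.3 CPM, all overlapping in turn.

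Bcl11b (ENSMUSG00000048251, chromosome 12) had its highest levels in the CD8 T cell populations other than TCRb+CD8a+NK1.1+ cells. Its lowest levels were in cells sorted or named as lacking a T cell receptor. In the first set it was highest in TCRb+CD8a+PD1+ libraries, at 198 and 168 CPM, which overlapped the 198 and 108 CPM of TCRb+CD8a+PD1-NK1.1- libraries. TCRb+CD8a+NK1.1+ libraries held 43.3 and 36.5 CPM and TCRb+CD8a-NK1.1+ libraries 25.2 and 46.5 CPM, which overlapped, and TCR-NK1.1+ libraries held 4.96 and 7.99 CPM. All 6 populations of the second set lay apart. The order was TCRb+CD8a+NK1.1- with 105 and 102 CPM, TCRgd+NK1.1- with 45.1 and 69.7 CPM, TCRab+ILTC1 with 34.2 and 32.6 CPM, TCRgd+ILTC1 with 24.3 and 17.7 CPM, ILC1l with 5.75 and 5.32 CPM, and cNK with 2.26 and 4.80 CPM.

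Id3 (ENSMUSG00000007872, chromosome 4) was the flattest of the 7 genes in the first set, with a ratio of 1.47 between its highest and lowest mean. It was at 76.4 and 80.7 CPM in TCRb+CD8a+NK1.1+, 50.8 and 96.7 CPM in TCRb+CD8a-NK1.1+, 46.8 and 87.1 CPM in TCRb+CD8a+PD1+, 47.0 and 88.4 CPM in TCRb+CD8a+PD1-NK1.1-, and 55.1 and 51.8 CPM in TCR-NK1.1+ libraries. All neighbours in that order overlapped. In the second set the gene ranged more widely, 6.92-fold between means. cNK libraries stood apart at 8.33 and 9.24 CPM, and the other 5 populations averaged 23.4 to 60.8 CPM and overlapped in turn.

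Levels of different genes can be compared only per length, here as CPM per kilobase of annotated exon. On that scale Tcf7 was the most abundant of the 7 in TCRb+CD8a+PD1-NK1.1- cells, with a mean level of 226, followed by Lef1 at 39.1 and Id3 at 37.8, and Bach2 was lowest at 2.73. In cNK cells Tcf7 was again first at 41.7 and Bcl11b last at 0.435. In TCRb+CD8a+NK1.1+ cells the order changed, with Id3 first at 43.9 and Tcf7 second at 15.9. Each length took all annotated exons of a gene together, 2625 bases for Tcf7, 8788 for Lef1 and 19027 for Satb1. It came from a GRCm38 annotation. Which transcripts these cells make was not measured, so the order of genes depends on this choice of length.

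TCRb+CD8a+NK1.1+ cells were compared with TCRb+CD8a+PD1-NK1.1- cells, which asks how the factors differ between NK1.1-bearing CD8 T cells and CD8 T cells with neither marker. Tcf7 was 14.2-fold lower and Lef1 24.2-fold lower in TCRb+CD8a+NK1.1+ cells, and Bach2, Foxo1 and Bcl11b were also lower. Of the 7 genes 5 were lower and none higher, where 0.865% of the 15727 genes tested were lower and 1.78% were called in either direction. Tcf7 averaged 41.7 ± 6.30 CPM in TCRb+CD8a+NK1.1+ cells and 594 ± 188 CPM in TCRb+CD8a+PD1-NK1.1- cells (−3.83 ± 0.36, adjusted p = 0.00163). Lef1 averaged 14.2 ± 2.22 and 344 ± 222 CPM in the same populations (−4.60 ± 0.53, adjusted p = 0.00361). Both kept their calls whichever of the 4 libraries was left out, with adjusted p of 0.00245 to 0.0254 for Tcf7 and 0.0023 to 0.0498 for Lef1.

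The other 3 calls of this comparison were near the threshold. Bach2 was 15.8-fold lower (−3.98 ± 0.84, adjusted p = 0.0484), Foxo1 3.91-fold lower (−1.97 ± 0.39, adjusted p = 0.0396) and Bcl11b 3.84-fold lower (−1.94 ± 0.41, adjusted p = 0.0495) in TCRb+CD8a+NK1.1+ cells. Each lost its call when any 1 of the 4 libraries was left out, with adjusted p of 0.0834 to 0.389 for Bach2, 0.088 to 0.353 for Foxo1 and 0.0626 to 0.397 for Bcl11b. Satb1 did not pass (−1.87 ± 0.46, adjusted p = 0.0919), although its libraries lay apart. Id3 differed by 0.21 ± 0.43 (adjusted p = 0.986).

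A list of 18 genes of the naive and memory T cell programme, which holds homing receptors, survival receptors and factors, was read in the same comparison. In TCRb+CD8a+NK1.1+ cells 12 of the 18 were lower and 1 was higher, with a median log2 fold change of −4.45 against 0.0 over all genes tested. Ccr7, the chemokine receptor that guides naive T cells into lymph nodes, was at 0.25 and 0.585 CPM in TCRb+CD8a+NK1.1+ libraries and at 539 and 220 CPM in TCRb+CD8a+PD1-NK1.1- libraries (−9.80 ± 0.81, adjusted p = 0.00116). Dapl1 was at 0.0834 and 0.334 CPM against 151 and 60.2 CPM (−8.92, adjusted p = 0.00226). Igfbp4, a binding protein of insulin-like growth factors, had 0 counts in TCRb+CD8a+NK1.1+ libraries and averaged 29.6 ± 3.92 CPM in TCRb+CD8a+PD1-NK1.1- libraries. It was at least 237-fold lower with 3 counts over the population as the floor (adjusted p = 0.0029). Txk, a Tec-family kinase gene, went the other way at 444 and 436 CPM against 162 and 151 CPM (1.49, adjusted p = 0.0166).

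Relatives of the 7 genes were read next. Of 13 tested TCF/LEF relatives and cofactors, 1 was higher and none lower, with a median of −0.27. It was Tle2, a corepressor partner of TCF and LEF proteins, named after its values were seen. Tle2 was at 11.8 and 11.7 CPM in TCRb+CD8a+NK1.1+ libraries and had 0 counts in TCRb+CD8a+PD1-NK1.1- libraries, and was at least 103-fold higher (adjusted p = 0.0416). Of 13 tested relatives and partners of the other factors, none was called. Foxp1, a forkhead factor, averaged 158 CPM in TCRb+CD8a+NK1.1+ and 355 CPM in TCRb+CD8a+PD1-NK1.1- cells without passing (−1.17 ± 0.28, adjusted p = 0.0891). Of 12 effector and residency factors 2 were higher and 1 lower. Ikzf2, which encodes Helios, averaged 334 ± 8.39 CPM in TCRb+CD8a+NK1.1+ and 44.0 ± 3.16 CPM in TCRb+CD8a+PD1-NK1.1- cells (2.92 ± 0.44, adjusted p = 0.0118). Nfil3 averaged 23.9 ± 4.59 and 5.44 ± 0.721 CPM (2.14 ± 0.41, adjusted p = 0.036). Eomes encodes a T-box factor of memory CD8 T cells and natural killer cells. It averaged 8.31 ± 0.312 and 47.1 ± 3.70 CPM (−2.50 ± 0.34, adjusted p = 0.00725).

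**Figure D2:**
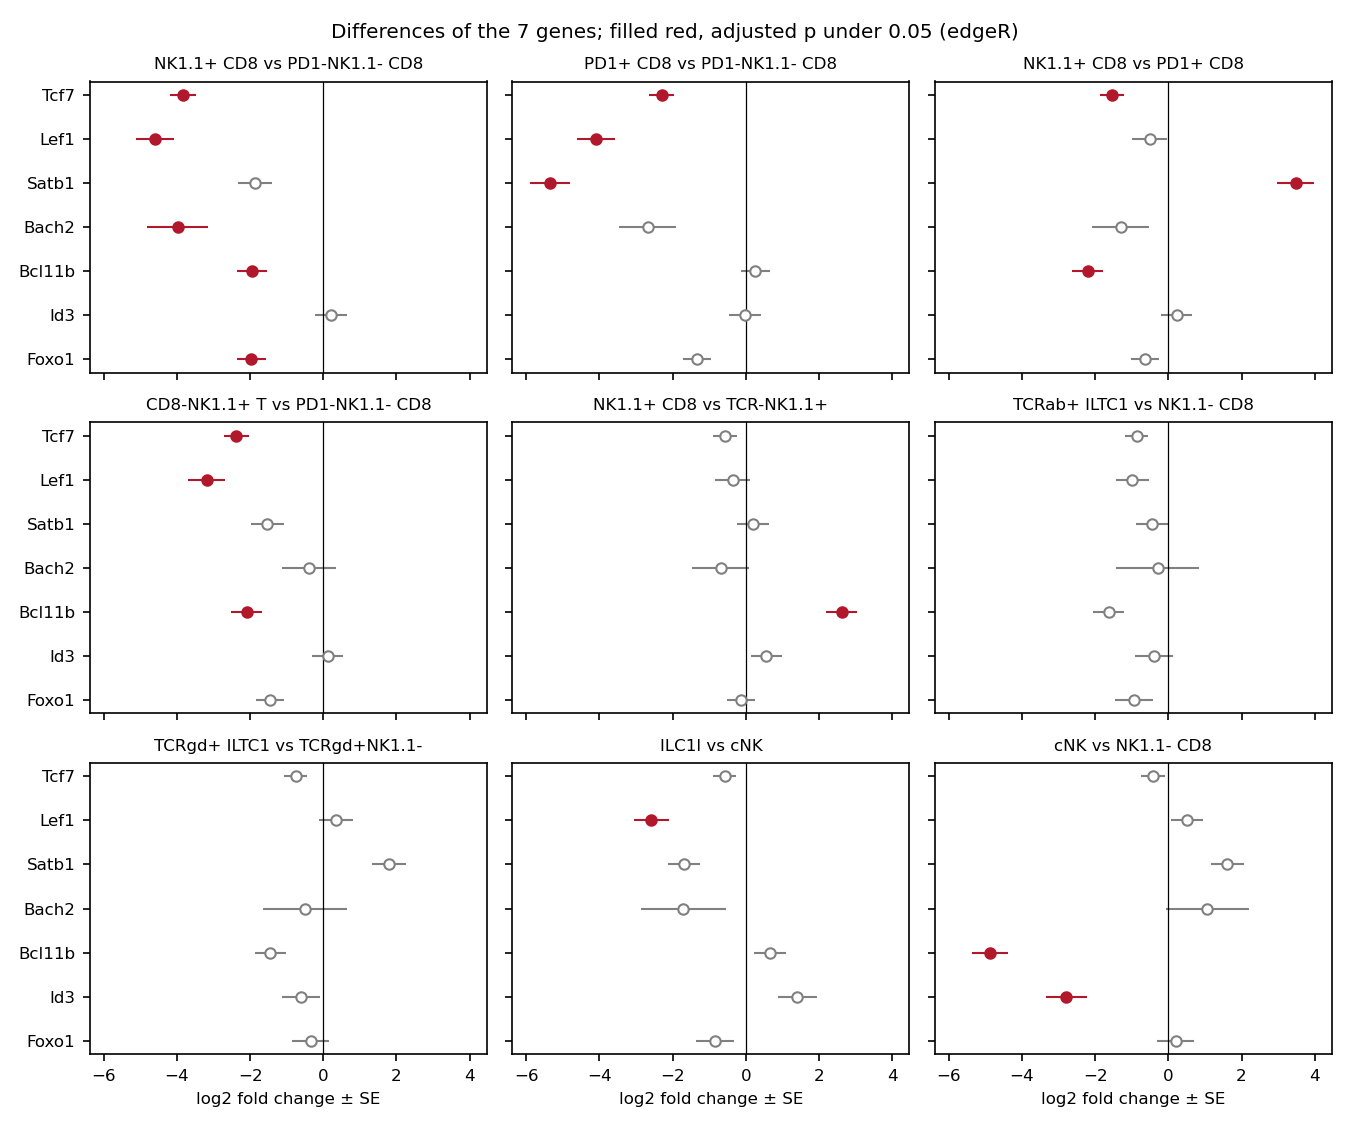
Log2 fold change ± SE of the 7 genes in 9 comparisons, each named with the population on top of the fold change first and in short form (NK1.1+ CD8 for TCRb+CD8a+NK1.1+ cells). Filled red points have an edgeR adjusted p under 0.05 and open grey points do not. Tcf7 and Lef1 lie left of 0 and are called in all 3 comparisons with TCRb+CD8a+PD1-NK1.1- cells, and Bcl11b has its largest difference, −4.87, between cNK and TCRb+CD8a+NK1.1- cells.

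TCRb+CD8a+PD1+ cells were compared with TCRb+CD8a+PD1-NK1.1- cells. Satb1, Lef1 and Tcf7 were lower in PD1+ cells, and the libraries of Bcl11b and Id3 overlapped between the 2 populations. The 3 lower genes of 7 stand against 0.267% of all genes lower and 0.451% called in either direction. Satb1 was 40.7-fold lower (−5.35 ± 0.54, adjusted p = 0.00622) and kept its call without each of the 4 libraries (adjusted p = 0.012 to 0.0413). Lef1 was 17.0-fold lower (−4.09 ± 0.52, adjusted p = 0.0128), with an adjusted p of 0.0534 without PD1+ replicate 1 and 0.115 without PD1+ replicate 2. Tcf7 was 4.94-fold lower (−2.30 ± 0.34, adjusted p = 0.0212). It lost the call without PD1+ replicate 1 (adjusted p = 0.0664), PD1+ replicate 2 (0.217) or PD1-NK1.1- replicate 1 (0.133).

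Bach2 (−2.68 ± 0.78, adjusted p = 0.323) and Foxo1 (−1.34 ± 0.38, adjusted p = 0.303) had all libraries apart but did not pass in PD1+ cells. Bcl11b differed by 0.26 ± 0.40 and Id3 by −0.02 ± 0.43, both with an adjusted p of 1.0. In the programme list 4 of 18 genes were lower in PD1+ cells and none higher, with a median of −2.00 against 0.0 over all genes. Ccr7, the lymph node homing receptor gene, was at 27.8 and 13.7 CPM against 539 and 220 CPM (−4.19, adjusted p = 0.0205). Igfbp4 had 0 counts in PD1+ libraries and was at least 265-fold lower (adjusted p = 0.00882). Tox, an HMG-box factor of chronically stimulated T cells, was the 1 gene called on the lists of T lineage factors and of effector and residency factors, both of which hold it, at 1015 ± 89.9 CPM in PD1+ and 175 ± 34.6 CPM in PD1-NK1.1- cells (2.53 ± 0.26, adjusted p = 0.00622).

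TCRb+CD8a+NK1.1+ and TCRb+CD8a+PD1+ cells were then compared with each other. Satb1 was higher in NK1.1+ cells, and Bcl11b and Tcf7 were lower. This gave 1 of 7 genes higher, against 1.09% of all genes, and 2 lower, against 1.02% (2.11% in either direction). Mean Satb1 was 53.0 ± 27.1 CPM for NK1.1+ cells against 4.73 ± 0.387 CPM for PD1+ cells, an 11.2-fold difference (3.48 ± 0.50, adjusted p = 0.0061), which missed the threshold without PD1+ replicate 2 (adjusted p = 0.0598). Bcl11b was 4.59-fold lower in NK1.1+ cells (−2.20 ± 0.42, adjusted p = 0.0246), and Tcf7 was 2.88-fold lower (−1.53 ± 0.33, adjusted p = 0.049). Without any 1 of the 4 libraries both lost the call, with adjusted p of 0.0816 to 0.243 for Bcl11b and 0.076 to 0.41 for Tcf7. Lef1 (−0.51 ± 0.47), Bach2 (−1.30 ± 0.78), Foxo1 (−0.63 ± 0.38) and Id3 (0.23 ± 0.43) had adjusted p of 0.651 to 0.969.

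Genes of the programme list also separated these 2 CD8 populations, with 7 of 18 lower and 1 higher in NK1.1+ cells and a median of −1.97. Il7r, the interleukin 7 receptor gene, was at 3.84 and 1.25 CPM in NK1.1+ libraries and at 143 and 148 CPM in PD1+ libraries (−5.83, adjusted p = 0.000885). Cd28, the costimulatory receptor gene, was at 17.9 and 19.7 CPM against 838 and 655 CPM (−5.31, adjusted p = 0.000166). Ccr7 was lower as well (−5.61, adjusted p = 0.00417), and Txk was higher (2.77, adjusted p = 0.000767). Foxo3, a relative of Foxo1, had means of 74.0 ± 9.30 CPM for NK1.1+ cells and 24.0 ± 1.84 CPM for PD1+ cells (1.62 ± 0.30, adjusted p = 0.0222). Eomes was lower in NK1.1+ cells, at 8.31 ± 0.312 CPM against 129 ± 7.33 CPM (−3.95 ± 0.36, adjusted p = 0.00074).

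**Figure D3:**
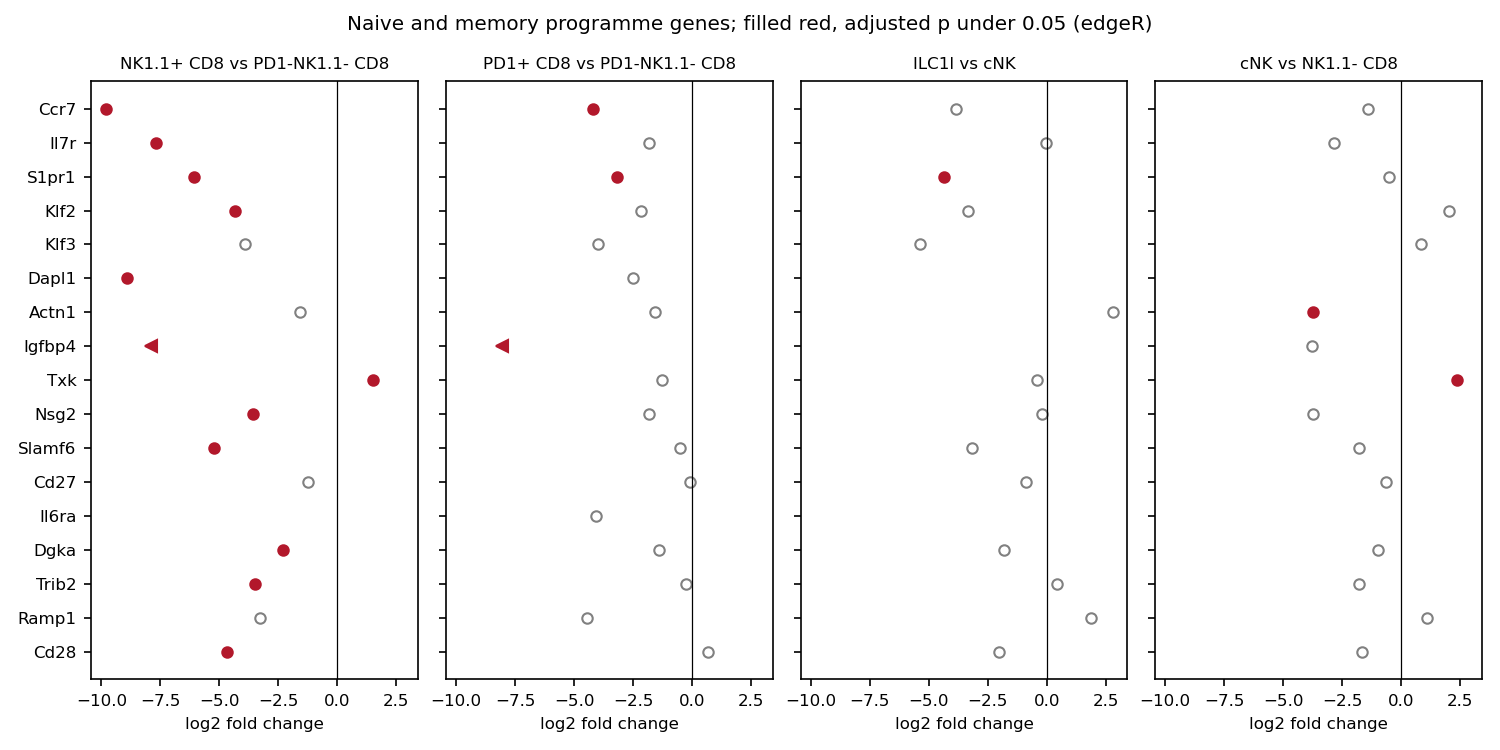
Log2 fold change of genes of the naive and memory programme in 4 comparisons, each panel titled with the population on top of the fold change first. Filled red symbols have an edgeR adjusted p under 0.05, triangles mark Igfbp4 at its lower bound where a population had 0 counts, and a gene with at most 3 counts in either population is otherwise not drawn. In NK1.1+ CD8 cells against PD1-NK1.1- CD8 cells every called gene but Txk lies left of 0, and S1pr1 lies left of 0 at −4.35 in ILC1l against cNK cells.

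TCRb+CD8a-NK1.1+ cells were compared with TCRb+CD8a+PD1-NK1.1- cells. Lef1 was 9.10-fold lower (−3.19 ± 0.50, adjusted p = 0.0171), Tcf7 5.20-fold lower (−2.38 ± 0.34, adjusted p = 0.0133) and Bcl11b 4.27-fold lower (−2.09 ± 0.42, adjusted p = 0.0414). These were 3 of 7 genes, against 0.362% of all genes lower and 1.42% called in either direction. Foxo1 (−1.46 ± 0.38, adjusted p = 0.106) and Satb1 (−1.53 ± 0.45, adjusted p = 0.152) had libraries apart but did not pass, and Bach2 (−0.39 ± 0.73) and Id3 (0.12 ± 0.43) overlapped. No call was left without PD1-NK1.1- replicate 1, with adjusted p of 0.0966 for Tcf7, 0.111 for Lef1 and 0.287 for Bcl11b, and Bcl11b also missed without CD8a-NK1.1+ replicate 1 (0.0979) or PD1-NK1.1- replicate 2 (0.0656). Fitted on these 2 populations alone, Tcf7 (adjusted p = 0.0565), Lef1 (0.0704) and Bcl11b (0.132) did not pass. In the programme list 7 of 18 genes were lower and 1 higher in CD8a-NK1.1+ cells, with a median of −2.22 against 0.06 over all genes. Ccr7 (−5.39, adjusted p = 0.00506), Dapl1 (−5.50, adjusted p = 0.0105) and Slamf6 (−4.01, adjusted p = 0.00939) were among the lower genes, and Txk was higher (1.25, adjusted p = 0.0379). Of 15 epithelial genes tested 4 were higher in CD8a-NK1.1+ cells, with summed CPM of 4598 and 1022 against 259 and 383, and 4 of 16 were at 0 in the second CD8a-NK1.1+ library. Of 20 myeloid genes 3 were higher and of 10 T cell markers 3 were lower in CD8a-NK1.1+ cells, Cd5 (−2.56), Cd6 (−2.99) and Lat (−1.76), with summed CPM of the 10 at 5485 and 5590 against 6883 and 7297. The part of these shifts in the results was not tested.

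The NK1.1+ populations were next compared by the presence of a T cell receptor. Against TCR-NK1.1+ cells, TCRb+CD8a+NK1.1+ cells had 1 of 7 genes called, Bcl11b, which was higher, where 0.267% of all genes were higher and 1.54% were called in either direction. Bcl11b averaged 39.9 ± 4.82 CPM in TCRb+CD8a+NK1.1+ and 6.48 ± 2.14 CPM in TCR-NK1.1+ cells, a 6.14-fold difference (2.62 ± 0.43, adjusted p = 0.021). The call held without TCR-NK1.1+ replicate 2 (adjusted p = 0.0495) and was lost without TCR-NK1.1+ replicate 1 (0.148) or without either TCRb+CD8a+NK1.1+ library (0.147 and 0.104). The other 6 genes differed by −0.68 to 0.56 on the log2 scale, with adjusted p of 0.447 to 0.936. Cd3e was also higher (2.46 ± 0.35, adjusted p = 0.0148), as were 8 of 10 T cell marker genes, with summed CPM of 9390 and 9041 against 1895 and 2273. Epithelial genes moved the other way, with 4 of 15 lower and summed CPM of 584 and 705 against 6434 and 3956, and their part in the results was not tested. In the programme list 4 of 18 genes were lower and none higher, among them Il7r (−3.36, adjusted p = 0.0195) and Cd28 (−1.46, adjusted p = 0.0459).

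TCRb+CD8a-NK1.1+ cells against TCR-NK1.1+ cells gave no call among the 7 genes, nor in any gene tested (0.0%). By edgeR 1345 genes, and 4 of the 7, were under an unadjusted p of 0.05, and DESeq2 called 186 genes, 2 of them among the 7. Bach2 (2.91 ± 0.80, adjusted p = 0.429) and Bcl11b (2.47 ± 0.43, adjusted p = 0.113) had the largest differences, both towards higher values in TCRb+CD8a-NK1.1+ cells and with libraries apart.

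In the second set the ILTC1 and ILC1l populations were each set against the population without the innate-like phenotype. ILC1l cells against cNK cells gave the 1 call of these 3 comparisons. Lef1 averaged 14.9 ± 0.516 CPM in ILC1l and 89.2 ± 11.2 CPM in cNK cells, 6.00-fold lower (−2.59 ± 0.48, adjusted p = 0.0383), where 0.41% of all genes were lower and 1.02% were called in either direction. Without any 1 of the 4 libraries its adjusted p was 0.206 to 0.357. Satb1 (−1.69 ± 0.45), Bach2 (−1.71 ± 1.16), Foxo1 (−0.84 ± 0.51) and Tcf7 (−0.58 ± 0.32) lay towards lower values in ILC1l cells. Id3 (1.41 ± 0.54) and Bcl11b (0.65 ± 0.44) lay towards higher values. None of these 6 passed, with adjusted p of 0.152 to 0.648. Libraries lay apart for all 7 genes, but with 2 libraries a population this can occur without a difference. The share of all genes whose libraries lay apart was not counted. Cd3e was higher in ILC1l cells (6.40 ± 1.05, adjusted p = 0.0214), as were 5 of 10 T cell markers, while 1, Cd247, was lower (−1.92, adjusted p = 0.0108). Their summed CPM was 929 and 2758 in ILC1l against 486 and 583 in cNK libraries. Their part in the values of Id3 and Bcl11b was not tested.

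Of the programme list, 2 of 18 genes were lower in ILC1l than in cNK cells and none was higher. The median was −1.93 against 0.03 over all genes, and −0.80 with the 3 genes at 0 counts in a population set at their bounds. S1pr1, the receptor for exit from tissue, was among them and was at 2.29 and 4.33 CPM against 70.3 and 64.7 CPM (−4.35 ± 0.58, adjusted p = 0.00729).

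TCRab+ILTC1 cells against TCRb+CD8a+NK1.1- cells gave no call among the 7 genes, where 0.523% of all genes (88) were called. By edgeR 2 of the 7 were under an unadjusted p of 0.05, as were 2327 genes in all. DESeq2 called 1189 of 16828 genes, 1 of them among the 7. All 7 had lower fitted values in TCRab+ILTC1 cells. Bcl11b differed most (−1.63 ± 0.43, adjusted p = 0.132), followed by Lef1 (−0.99 ± 0.45, adjusted p = 0.371), Foxo1 (−0.94 ± 0.51, adjusted p = 0.448) and Tcf7 (−0.87 ± 0.32, adjusted p = 0.272). Libraries lay apart for these 4 and for Id3 and overlapped for Satb1 and Bach2. Id3 lay apart at a difference of only −0.40 ± 0.52 (adjusted p = 0.785), and the share of all genes lying apart was not counted. Summed epithelial CPM was 940 and 822 in TCRab+ILTC1 and 2095 and 3411 in TCRb+CD8a+NK1.1- libraries, and 1 of 15 genes was called lower. Txk was higher (2.08, adjusted p = 0.0341) and Cd28 lower (−3.94, adjusted p = 0.0427), the 2 calls of the programme list.

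TCRgd+ILTC1 cells against TCRgd+NK1.1- cells also gave none of the 7, where 1.59% of all genes were called. By edgeR 3 of the 7 and 2920 genes in all were under an unadjusted p of 0.05. DESeq2 called 1700 of 16828 genes, 2 of them among the 7. Satb1 was 3.48-fold higher in TCRgd+ILTC1 cells without passing (1.80 ± 0.46, adjusted p = 0.0851), and Bcl11b was 2.74-fold lower without passing (−1.45 ± 0.43, adjusted p = 0.124). Libraries lay apart for both and for Tcf7 (−0.76 ± 0.32, adjusted p = 0.26). Those of Lef1 overlapped, with a difference of 0.35 ± 0.46 (adjusted p = 0.769). How many of all genes had libraries apart was not counted. Myeloid genes moved with this comparison, 7 of 20 lower, with summed CPM of 1251 and 1347 in TCRgd+ILTC1 and 10195 and 27650 in TCRgd+NK1.1- libraries. Of 15 epithelial genes 4 were lower and 1 higher, with summed CPM of 1275 and 832 against 4016 and 2274. The part of these cells in the results was not tested. Txk was the 1 called programme gene (2.73, adjusted p = 0.00902).

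The mean of the 3 differences was tested as 1 contrast over the second set. On average over the 3 lineages Tcf7 was 1.67-fold lower (−0.74 ± 0.18, adjusted p = 0.0467) and Lef1 2.11-fold lower (−1.08 ± 0.26, adjusted p = 0.043) in the ILTC1 and ILC1l populations. These were 2 of 7 genes, where 3.97% of all genes were lower and 5.87% were called in either direction. By lineage Lef1 differed by −0.99 ± 0.45 (TCRab), 0.35 ± 0.46 (TCRgd) and −2.59 ± 0.48 (NK), so its mean does not stand for the TCRgd lineage. Tcf7 differed by −0.87 ± 0.32, −0.76 ± 0.32 and −0.58 ± 0.32 in the same order. Bcl11b (−0.81 ± 0.25, adjusted p = 0.0935) and Foxo1 (−0.71 ± 0.29, adjusted p = 0.214) did not pass. Each call held in 3 of the 12 fits that leave out a library, with adjusted p of 0.0281 to 0.16 for Tcf7 and 0.0266 to 0.151 for Lef1. Tcf7 held without TCRgd+ILTC1 replicate 1, TCRab+ILTC1 replicate 1 or TCRgd+NK1.1- replicate 1, and Lef1 without TCRab+ILTC1 replicate 1, TCRb+CD8a+NK1.1- replicate 1 or TCRgd+NK1.1- replicate 2. The TCRgd+ difference was also left out of the contrast, a choice made after seeing the data, with its libraries kept in the fit. The adjusted p was then 0.134 for Tcf7 and 0.0213 for Lef1. In a fit that left out the 1435 genes whose levels follow epithelial or myeloid markers, the difference was −1.16 for Lef1 (adjusted p = 0.0517) and −0.82 for Tcf7 (adjusted p = 0.048). In the programme list 6 of 18 genes were lower and 1 higher, among them S1pr1 (−2.62, adjusted p = 0.00202), Cd28 (−2.09, adjusted p = 0.0106) and Il7r (−1.93, adjusted p = 0.0128).

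Whether the innate-like difference was unequal between lineages was tested by contrasts of the differences. None of the 7 genes was called in the TCRab difference minus the TCRgd difference (0.0535% of all genes called) or in the TCRab difference minus the NK difference (0.256%). By edgeR 1 and 3 of the 7 genes were under an unadjusted p of 0.05, as were 1489 and 1469 of all 16828 genes. DESeq2 called 348 and 520 genes, 1 of them among the 7 in each. The largest values were −2.25 ± 0.63 for Satb1 in the first (adjusted p = 0.348) and −2.28 ± 0.61 for Bcl11b in the second (adjusted p = 0.23).

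TCRab+ILTC1 cells against ILC1l cells, both innate-like and differing in the receptor, gave no call in any gene (0.0%). By edgeR 2 of the 7 and 1072 genes in all were under an unadjusted p of 0.05, and DESeq2 called 199 genes, 1 of them among the 7. Bcl11b was 6.02-fold higher in TCRab+ILTC1 cells without passing (2.59 ± 0.45, adjusted p = 0.237), with libraries apart. Summed CPM of 10 T cell markers was 7843 and 6679 in TCRab+ILTC1 and 929 and 2758 in ILC1l libraries. The part of T cell transcripts of ILC1l libraries in this comparison was not tested.

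cNK cells were last compared with TCRb+CD8a+NK1.1- cells. Bcl11b and Id3 were lower in cNK cells, 2 of 7 genes where 1.04% of all genes were lower and 1.74% were called in either direction. Bcl11b averaged 3.53 ± 1.80 CPM in cNK and 103 ± 2.10 CPM in TCRb+CD8a+NK1.1- cells, 29.3-fold lower (−4.87 ± 0.50, adjusted p = 0.00152), and kept the call without each of the 4 libraries (adjusted p = 0.00719 to 0.0195). Id3 averaged 8.78 ± 0.648 and 60.8 ± 1.37 CPM, 6.91-fold lower (−2.79 ± 0.56, adjusted p = 0.0399), and lost the call without any 1 of the 4 libraries (adjusted p = 0.122 to 0.35). Satb1 was 3.06-fold higher without passing (1.61 ± 0.45, adjusted p = 0.149). Tcf7 (−0.42 ± 0.32), Lef1 (0.51 ± 0.45), Bach2 (1.07 ± 1.14) and Foxo1 (0.20 ± 0.51) had adjusted p of 0.715 to 0.98. Cd3e was lower in cNK cells (−7.90 ± 1.12, adjusted p = 0.00698), as were 9 of 10 T cell markers, with summed CPM of 486 and 583 against 5853 and 4487. Of 15 epithelial genes 4 were lower in cNK cells, with summed CPM of 73.8 and 127 against 2095 and 3411, and their part in the results was not tested.

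Id2, the relative of Id3, went the other way. It averaged 2099 ± 84.7 CPM in cNK and 701 ± 227 CPM in TCRb+CD8a+NK1.1- cells (1.58 ± 0.29, adjusted p = 0.0282). Over the 11 populations Id2 means ran from 701 CPM to 2591 CPM in ILC1l cells, and high Id2 means stood beside both low and high Id3 means. ILC1l cells had 2591 CPM of Id2 and 23.4 CPM of Id3, TCR-NK1.1+ cells 2520 and 53.4 CPM, and TCRb+CD8a+PD1+ cells 1850 and 66.9 CPM. In the programme list Txk was higher in cNK cells (2.35, adjusted p = 0.00521), and Actn1, a gene of the actin cytoskeleton, was lower (−3.75, adjusted p = 0.0494).

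**Figure D4:**
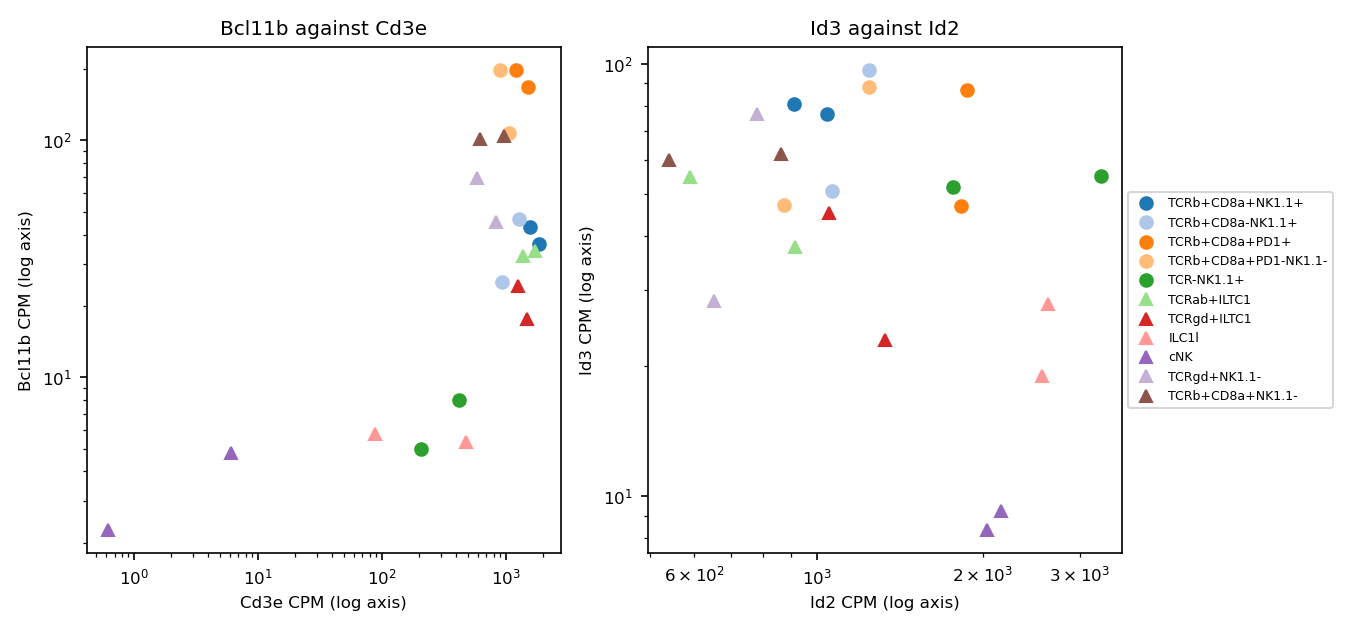
Bcl11b against Cd3e and Id3 against Id2 in all 22 libraries, in CPM on log axes, with circles for the first set and triangles for the second. cNK libraries sit at the low end of both Bcl11b and Cd3e and of Id3, with Id2 at 2039 and 2159 CPM.

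Likeness of pattern was described over the 11 population means of log2(CPM + 1), among 8560 genes of at least 20 CPM in a population. These points share libraries, depth and any cells of other types, so r is given as a description alone. Tcf7 was most like Ccr7 (r = 0.899), Lef1 (0.89) and Txnip (0.888), and Lef1 most like Ly6c2 (0.921), Tcf7 (0.89) and Atp1b3 (0.88). Bach2 was most like Ly6c2 (0.879), Lef1 (0.878) and Tcf7 (0.837), and Foxo1 most like Fam69a (0.89), Rgcc (0.886) and Ccr7 (0.874). The genes most like Satb1 included Klf7 (0.865) and the pseudogene Klra13-ps (0.852), whose reads may come from close Klra relatives. Bcl11b had Sit1 (0.989), Slfn1 (0.969) and Themis (0.962), of which Sit1 and Themis act in T cell receptor signalling. Id3 had Cd3d (0.9), Tfdp1 (0.897) and Actn1 (0.891). Among the 7 genes themselves r was highest for Tcf7 with Lef1, and it was −0.38 for Satb1 with Bcl11b and −0.34 for Satb1 with Id3.

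Elsewhere the relatives of the 7 genes were seldom called. Tle2 averaged 12.4 ± 8.22 CPM in TCRb+CD8a-NK1.1+ cells and had 0 counts in TCRb+CD8a+PD1-NK1.1- cells, at least 109-fold higher (adjusted p = 0.045), and was again 1 of 13 tested TCF/LEF relatives and cofactors. Sox4, an HMG-box relative, averaged 1.84 ± 0.476 CPM in TCRb+CD8a+NK1.1+ and 58.5 ± 13.6 CPM in TCR-NK1.1+ cells (−4.99 ± 1.03, adjusted p = 0.0473). It was also lower in TCRgd+ILTC1 against TCRgd+NK1.1- cells (adjusted p = 0.0211) and, with Tcf7l2, in the mean of the 3 differences (−6.41, adjusted p = 0.00222, and −4.84, adjusted p = 0.0111). In both pairwise comparisons the population with less Sox4 also had the lower epithelial sums, and in the mean of the 3 differences 10 of 15 epithelial and 13 of 20 myeloid genes were lower and 1 of each list was higher, Cdh1 (2.54, adjusted p = 0.000121) and Lgals3 (2.05, adjusted p = 0.000652). The part of those cells in the Sox4 and Tcf7l2 values was not tested. Tcf4, an E protein gene, was lower in TCRb+CD8a+NK1.1+ than in TCR-NK1.1+ cells (−4.16, adjusted p = 0.0472) and in the mean (−1.64, adjusted p = 0.0385).

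Effector and T lineage factors gave a few calls beside the 7 genes in the second set. In cNK against TCRb+CD8a+NK1.1- cells 2 of 12 effector and residency factors were higher and 2 lower. Tbx21, the T-bet gene, was higher (2.01 ± 0.37, adjusted p = 0.0278), as was Id2, while Ikzf2 (−3.28 ± 0.66, adjusted p = 0.0408) and Tox (−1.93 ± 0.31, adjusted p = 0.0144) were lower. Tbx21 was also higher in TCRgd+ILTC1 than in TCRgd+NK1.1- cells (1.83 ± 0.37, adjusted p = 0.0448). Sox13, a T lineage factor of gamma-delta T cells, had 0 counts in TCRgd+ILTC1 cells and averaged 43.4 ± 8.16 CPM in TCRgd+NK1.1- cells, at least 377-fold lower (adjusted p = 0.0452). In the mean of the 3 differences 2 of 12 were higher, the tissue residency gene Zfp683 (3.46 ± 0.68, adjusted p = 0.0182), and Rbpj of the Notch pathway (1.01 ± 0.25, adjusted p = 0.0427). Zeb2 (−3.81 ± 0.77, adjusted p = 0.0199) and Prdm1, the Blimp gene (−1.89 ± 0.42, adjusted p = 0.029), were lower. Zeb2 was at 400 and 288 CPM in cNK libraries. It was at 47.8 and 145 CPM in TCRgd+NK1.1- libraries, whose myeloid sums were 10195 and 27650. The part of other cells in the Zeb2, Prdm1 and Sox13 values was not tested.

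Over the 14 comparisons, which share populations, Tcf7 and Lef1 were each called lower 5 times and never higher. Bcl11b was lower in 4 and higher in 1, Satb1 lower in 1 and higher in 1, and Bach2, Id3 and Foxo1 were each lower in 1. The median log2 difference of the 7 genes was −1.97 in TCRb+CD8a+NK1.1+, −2.30 in TCRb+CD8a+PD1+ and −1.53 in TCRb+CD8a-NK1.1+ cells against TCRb+CD8a+PD1-NK1.1- cells, where the medians over all genes tested were 0.0, 0.0 and 0.06. In the second set it was −0.87 in TCRab+ILTC1 against TCRb+CD8a+NK1.1- cells, −0.49 in TCRgd+ILTC1 against TCRgd+NK1.1- cells and −0.84 in ILC1l against cNK cells, where the medians over all genes were −0.07, −0.13 and 0.03.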

How the data were processed

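Per the labels' protocols, RNA of sorted tumour lymphocytes was amplified with a SMARTer RACE kit. The submitters' processing notes name BWA 0.7.5a, Picard, HTSeq and the builds mm9 and NCBIM37, without a strand setting. The authors deposited 1 table of whole counts per gene for 22 libraries. Groups and replicate numbers come from sample titles, with ILC1I and ILC1l treated as 1 spelling of a population. Symbols were matched for 32897 entries (99.02% of counts) with a GRCm38 annotation, also used for exon lengths. No gene coordinates are given because the builds differ, except those of RefSeq windows on GRCm38.p6.

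The 7 genes and the gene lists were chosen with earlier results of these data known. Counts were fitted in R 4.3.3 with edgeR 4.0.16 (TMM factors, the filterByExpr filter and the quasi-likelihood test, calling a gene at an adjusted p under 0.05 by the Benjamini-Hochberg method), with 1 mean per population and the 2 sets apart (10 and 12 libraries, 15727 and 16828 genes). The sets follow the 2 ways in which the labels name populations, not a stated batch. Alternatives were no filter, DESeq2's size factors, DESeq2 1.42.0, 1 fit over 22 libraries, a replicate block, only the populations compared, leaving out genes that follow other cell types (r above 0.8), each library left out and, chosen after seeing the data, no TCRgd+ populations in the contrast of the mean. Listed genes are named by a rule, at most 3 called genes each way of largest change whose higher population reached 20 CPM, and not every one is printed. Single values of 1 gene of the naive and memory list are not reported here. With 0 counts in a population, a fold is a bound at 3 counts over its libraries, which covers counting error only. The fits were tested on simulated data for TCRb+CD8a+NK1.1+ against PD1-NK1.1- cells and for ILC1l against cNK cells. Of genes given a log2 change of 1, 0% were called in both. At a change of 2 it was 46% and 20%, and at 4 it was 98% and 66%, in that order. A gene that was not called can therefore still differ. Figures were drawn in Python 3.11.15 with pandas 2.3.3, numpy 2.4.6 and matplotlib 3.10.9.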

Additional observations from a re-analysis of the deposited data

Results flagged for a closer look

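Satb1 and Bcl11b differed in direction between the gamma-delta T cell and the NK lineage, with no overlap of libraries in either. Satb1 was at 49.9 and 39.4 CPM in TCRgd+ILTC1 against 11.4 and 14.2 CPM in TCRgd+NK1.1- libraries, and at 46.3 and 53.1 CPM in ILC1l against 170 and 152 CPM in cNK libraries. The 2 log2 differences were 1.80 and −1.69, which lie 3.49 apart. Bcl11b was at 24.3 and 17.7 CPM in TCRgd+ILTC1 against 45.1 and 69.7 CPM in TCRgd+NK1.1- libraries, and at 5.75 and 5.32 CPM in ILC1l against 2.26 and 4.80 CPM in cNK libraries. Its log2 differences were −1.45 and 0.65, a distance of −2.10 for the TCRgd minus the NK lineage. None of these 4 differences was called, and the difference between the lineages was not tested for either gene. Summed CPM of 20 myeloid genes was 10195 and 27650 in TCRgd+NK1.1- libraries, and Cd3e was at 88.4 and 477 CPM in ILC1l libraries. The part of such transcripts in the 4 differences was not tested.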

How the results depend on the processing

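At this depth Bach2 was under 3 counts in 1 library, the only such value of the 7 genes. The number of the 7 genes called moved with the setting as follows. Without a filter on low counts it was 5 in PD1+ and 5 in CD8a-NK1.1+ against PD1-NK1.1- cells (3 in each as reported), 2 in CD8a-NK1.1+ against TCR-NK1.1+ cells, 1 in TCRgd+ILTC1 against TCRgd+NK1.1- cells, 2 in ILC1l against cNK cells and 1 in TCRab+ILTC1 against ILC1l cells. Calls over all genes rose as well, to 397, 1249, 287, 1786, 787 and 344 in that order, from 71, 223, 0, 268, 171 and 0 as reported. With DESeq2 the number of the 7 was 5, 5, 2, 2, 2 and 1 in the same order. It was 1 in TCRab+ILTC1 against TCRb+CD8a+NK1.1- cells and 1 in each difference between lineages. Calls over all genes with DESeq2 were 371, 1027, 186, 1700, 829, 199, 1189, 348 and 520 in that order. With 1 fit over 22 libraries 3 of the 7 were called in TCRb+CD8a+NK1.1+ against PD1-NK1.1- cells (5 as reported), where Bach2 (adjusted p = 0.149) and Foxo1 (0.0694) missed. In TCRgd+ILTC1 against TCRgd+NK1.1- and in TCRab+ILTC1 against ILC1l cells 1 was called. Calls over all genes there were 168, 626 and 9. Fitted on the compared populations alone, 0 of the 7 were called in CD8a-NK1.1+ against PD1-NK1.1- cells and 3 in ILC1l against cNK cells, with 32 and 1519 calls over all genes. In the mean of the 3 differences 1 was called without genes that follow other cell types and 1 without the TCRgd+ populations, with 397 and 437 over all genes. The count of the 7 was 6 in TCRb+CD8a+NK1.1+ against PD1-NK1.1- cells without a filter, with DESeq2 and on the compared populations alone, where Satb1 passed (adjusted p = 0.000141, 0.00254 and 0.0402). Calls over all genes in these fits were 747, 778 and 531. The count of the 7 was 3 in cNK against TCRb+CD8a+NK1.1- cells without a filter and with DESeq2 and 3 in the mean of the 3 differences with DESeq2 (2 in each as reported). There 1094, 1004 and 2252 of all genes were called. The cause of each change was not tested, and fewer samples were fitted on the compared populations alone or with a library left out. Without the TCRgd+ populations only the contrast changed, and all 12 libraries of the second set stayed in the fit.

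The replicate numbers name samples only, since the labels do not say that a number marks a shared source. Same-numbered libraries correlated in their deviations by 0.1 to 0.342 in the first set and −0.024 to 0.133 in the second. With a replicate block the count was 0 in ILC1l against cNK cells (Lef1, adjusted p = 0.0531), 0 in the mean of the 3 differences (Tcf7 0.0558, Lef1 0.059) and 1 in cNK against TCRb+CD8a+NK1.1- cells, where Id3 was at 0.0569. Over all genes the block gave 421 calls against 280 in TCRb+CD8a+NK1.1+ against PD1-NK1.1- cells. For ILC1l against cNK cells, the mean and cNK against TCRb+CD8a+NK1.1- cells it gave 184, 906 and 278, against 171, 987 and 293.

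With each library left out the count was 2 throughout in TCRb+CD8a+NK1.1+ against PD1-NK1.1- cells, 1 to 3 in PD1+ and 0 to 4 in CD8a-NK1.1+ against PD1-NK1.1- cells, and 0 to 1 in TCRb+CD8a+NK1.1+ against PD1+ cells and against TCR-NK1.1+ cells. It was 0 to 2 in CD8a-NK1.1+ against TCR-NK1.1+ cells, 0 in ILC1l against cNK cells, 0 to 3 in the mean, 0 to 1 in TCRab+ILTC1 against ILC1l cells and 1 in cNK against TCRb+CD8a+NK1.1- cells.

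Leaving out a library also turned the sign of differences of genes that were not called, none that was. In TCRb+CD8a+NK1.1+ against PD1-NK1.1- cells Id3 ran from −0.17 to 0.74 on the log2 scale. In PD1+ against PD1-NK1.1- cells Id3 ran from −0.53 to 0.50 and Bcl11b from −0.12 to 0.76, and in TCRb+CD8a+NK1.1+ against PD1+ cells Id3 from −0.15 to 0.75. In CD8a-NK1.1+ against PD1-NK1.1- cells Id3 ran from −0.43 to 0.66 and Bach2 from −1.84 to 0.32. Against TCR-NK1.1+ cells, TCRb+CD8a+NK1.1+ cells had Satb1 from −0.45 to 0.65, Lef1 from −0.70 to 0.09 and Foxo1 from −0.53 to 0.39, and CD8a-NK1.1+ cells had Id3 from −0.10 to 0.87, Satb1 from −0.06 to 0.96 and Foxo1 from −0.02 to 0.89. In TCRab+ILTC1 against TCRb+CD8a+NK1.1- cells Satb1 ran from −1.18 to 0.15 and Bach2 from −0.66 to 0.02. In TCRgd+ILTC1 against TCRgd+NK1.1- cells Id3 ran from −1.17 to 0.27, Bach2 from −4.37 to 0.46 and Foxo1 from −0.80 to 0.32. The mean of the 3 differences had Id3 from −0.05 to 0.43 and Satb1 from −0.38 to 0.09. In TCRab+ILTC1 against ILC1l cells Tcf7 ran from −0.11 to 0.31, Satb1 from −1.08 to 0.09, Bach2 from −0.01 to 0.61 and Foxo1 from −0.98 to 0.14. Foxo1 ran from −0.19 to 0.58 in cNK against TCRb+CD8a+NK1.1- cells. Of the differences between lineages, the TCRab minus the TCRgd one had Tcf7 from −0.47 to 0.38, Id3 from −0.67 to 0.77, Bach2 from −0.75 to 4.03 and Bcl11b from −0.55 to 0.11, and the TCRab minus the NK one had Foxo1 from −0.81 to 0.34.

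Counts over all genes moved more than those of the 7. As reported and at their lowest and highest under any alternative they were 280 (46, 778), 71 (14, 397) and 332 (116, 838) for TCRb+CD8a+NK1.1+ and PD1+ against PD1-NK1.1- cells and for the first against the second. They were 223 (32, 1249) for CD8a-NK1.1+ against PD1-NK1.1- cells, 242 (3, 1595) and 0 (0, 318) for the 2 comparisons with TCR-NK1.1+ cells, 88 (0, 1244), 268 (7, 1786) and 171 (34, 1519) for the TCRab, TCRgd and NK lineages, and 987 (397, 2252) for their mean. They were 0 (0, 344) for TCRab+ILTC1 against ILC1l cells, 293 (93, 1094) for cNK against TCRb+CD8a+NK1.1- cells, and 9 (0, 479) and 43 (4, 738) for the 2 differences between lineages. The balance of higher and lower calls moved in many comparisons, of which some are given. With 1 fit over 22 libraries, which changes the genes tested and the spread as well as the scaling, it was 107 higher and 61 lower for TCRb+CD8a+NK1.1+ against PD1-NK1.1- cells (144 and 136 as reported) and 140 and 81 against PD1+ cells (172 and 160). DESeq2's size factors, which change the scaling alone, gave 145 and 138, and 172 and 161, in those 2 comparisons, and 79 higher and 173 lower for TCRgd+ILTC1 against TCRgd+NK1.1- cells (113 and 155). For ILC1l against cNK cells 102 genes were higher and 69 lower as reported, and 382 and 447 with the DESeq2 test. For the mean of the 3 differences 319 were higher and 668 lower as reported. Without genes that follow other cell types these were 212 and 185.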

Other observations

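Replicate 1 of TCRb+CD8a+PD1-NK1.1- cells was above replicate 2 in 6 of the 7 genes, by the widest margin for Lef1 at 501 and 187 CPM, while Id3 was at 47.0 and 88.4 CPM. Of the 18 programme genes all but Klf2, a factor singled out after its values were seen, were higher in replicate 1. Ccr7 was at 539 and 220 CPM, Dapl1 at 151 and 60.2 CPM, Txk at 162 and 151 CPM, and Klf2 at 49.2 and 65.6 CPM.

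The CD8 T cells without NK1.1 of the second set, which were not sorted on PD1, had a Tcf7 mean of 146 CPM, a Satb1 mean of 52.5 CPM and a Pdcd1 mean of 694 CPM. In the first set PD1+ CD8 T cells averaged 120 CPM of Tcf7 and 4.73 CPM of Satb1, and PD1-NK1.1- CD8 T cells 594 CPM of Tcf7 and 193 CPM of Satb1. The sets were normalised apart and the difference was not tested. cNK cells, with 89.2 CPM of Lef1, 161 CPM of Satb1 and 15.8 CPM of Bach2, had the highest mean of the second set for these 3 genes, above that of its T cell populations. None of the 3 was called in cNK against TCRb+CD8a+NK1.1- cells, and the Lef1 libraries of those populations overlapped.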
